A study of Mus musculus with 9 samples.

Results

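The P38 mitogen-activated protein kinases and the proteins that act directly on or under them were followed at the mRNA level in mouse embryonic fibroblasts (MEFs) that lack thiol oxidases of the endoplasmic reticulum (ER). The set was chosen by gene symbol, with earlier results of these data known. It holds 10 genes of the 19938 measured: the 4 P38 isoforms (Mapk11, Mapk12, Mapk13 and Mapk14), their kinases Map2k3 and Map2k6, the kinase one step further up (Map3k5), the kinases that P38 activates (Mapkapk2 and Mapkapk3) and the receptor-proximal regulator Irak3. The 10 genes were each read by 1 probe set. TM MEFs carried mutant alleles of both ERO1 isoforms (m/m at Ero1α and at Ero1β) together with an X-linked null allele of Prdx4 (m/y), and DM MEFs carried the ERO1 alleles alone (Prdx4 +/+). The labels call the cells they were set against wild type (WT here), whereas the study's account of how its MEFs were isolated gives a control that was heterozygous for the Ero1α mutation (m/+), homozygous for that of Ero1β and intact at Prdx4, so that the 3 genotypes may share the Ero1β mutation. All were on the background written C57B/L6. The labels describe T antigen-transformed embryonic fibroblasts, and the methods, which describe primary and transformed cells, do not say which were hybridised. Each genotype was represented by 3 Affymetrix Gene ST arrays, which the sources do not tie to separate cultures or embryos, so p-values weigh differences against array-to-array spread alone, and this spread may be technical.

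P38 kinases are switched on when an upstream MAP3K, such as ASK1 (the product of Map3k5), phosphorylates the MAP2Ks MKK3 and MKK6 (Map2k3 and Map2k6), which in turn phosphorylate P38 itself. The active kinase phosphorylates transcription factors and the kinases MK2 and MK3 (Mapkapk2 and Mapkapk3), through which it stabilises the mRNAs of cytokines and other inflammatory proteins. In fibroblasts the cascade responds to oxidants, cytokines and other stress and is known for its part in growth arrest and in the secretion of interleukin 6. ASK1 is held inactive by reduced thioredoxin. IRAK-M, the product of Irak3, is a pseudokinase that restrains signalling from the interleukin 1 and Toll-like receptors, which lie upstream of P38. All of this switching is done by phosphorylation, which mRNA levels do not measure. From pathway analysis of its arrays, the study reported an overactive P38 pathway in both DM and TM cells. It also wrote of increased P38 activity in the mutant cells. The study probed phosphorylated P38 by immunoblot in its MEFs. It noted no activated P38 in TM cells whose ERO1α had been restored.

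Promoters of 6 members are printed because they frame the contrasts that follow. In the RefSeq gene table Mapk13 lies next to Mapk14 on chromosome 17, and Mapk12 lies next to Mapk11 on chromosome 15, with 0 genes between either pair. In each pair 1 gene was called in a comparison with WT and the other was not. Map3k5 and Irak3 are shown as the members that were higher in DM MEFs. The sequences are the 250 bases before the annotated start in RefSeq (GRCm38.p6), on the gene's own strand, 5′ to 3′, and capitals mark every match, on either strand, to any of 5 motifs. These were the GC box known as a site of SP1 family factors, spelled GGGCGG, the E-box bound by factors such as MYC and USF, spelled CACGTG, the site of the AP-1 factors that act at the end of stress kinase cascades, spelled TGANTCA, the cAMP response element that ATF and CREB factors recognise, spelled TGACGTCA, and the TATA box at which the basal machinery assembles, spelled TATAAA. The GC boxes, E-boxes and other motifs do not overlap one another in these windows.
Mapk13 promoter: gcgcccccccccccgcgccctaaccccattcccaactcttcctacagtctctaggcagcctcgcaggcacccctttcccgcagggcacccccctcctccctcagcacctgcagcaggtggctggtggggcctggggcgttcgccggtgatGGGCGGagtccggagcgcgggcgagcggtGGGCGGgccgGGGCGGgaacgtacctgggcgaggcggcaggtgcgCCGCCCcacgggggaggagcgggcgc
Mapk14 promoter: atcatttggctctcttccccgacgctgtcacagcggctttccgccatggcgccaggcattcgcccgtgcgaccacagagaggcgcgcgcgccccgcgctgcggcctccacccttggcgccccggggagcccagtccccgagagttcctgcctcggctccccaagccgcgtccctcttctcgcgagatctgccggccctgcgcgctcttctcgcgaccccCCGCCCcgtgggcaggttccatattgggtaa
Mapk12 promoter: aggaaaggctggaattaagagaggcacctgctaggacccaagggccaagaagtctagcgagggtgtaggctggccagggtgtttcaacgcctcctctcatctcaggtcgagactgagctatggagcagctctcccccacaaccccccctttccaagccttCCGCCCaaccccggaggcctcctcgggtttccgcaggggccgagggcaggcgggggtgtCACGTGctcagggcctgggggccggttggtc
Mapk11 promoter: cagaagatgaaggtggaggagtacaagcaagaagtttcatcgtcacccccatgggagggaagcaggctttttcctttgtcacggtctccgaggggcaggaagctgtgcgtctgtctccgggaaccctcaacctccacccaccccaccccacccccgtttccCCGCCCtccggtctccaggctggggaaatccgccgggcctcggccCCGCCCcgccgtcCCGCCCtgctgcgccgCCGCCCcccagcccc
Map3k5 promoter: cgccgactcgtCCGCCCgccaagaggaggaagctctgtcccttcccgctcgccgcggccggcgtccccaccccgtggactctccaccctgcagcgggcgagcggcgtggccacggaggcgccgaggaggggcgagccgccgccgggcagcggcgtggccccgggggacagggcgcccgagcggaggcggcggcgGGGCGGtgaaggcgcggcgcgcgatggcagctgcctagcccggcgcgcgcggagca
Irak3 promoter: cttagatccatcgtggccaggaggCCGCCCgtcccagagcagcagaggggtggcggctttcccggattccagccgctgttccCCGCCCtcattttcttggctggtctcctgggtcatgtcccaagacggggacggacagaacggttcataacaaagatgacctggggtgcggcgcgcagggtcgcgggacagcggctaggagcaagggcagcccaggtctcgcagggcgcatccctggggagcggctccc
The first to the last of these cover chr17:28769067-28769316 (plus strand, Mapk13), chr17:28691092-28691341 (plus strand, Mapk14, the first of 2 annotated starts), chr15:89140704-89140953 (minus strand, Mapk12), chr15:89149607-89149856 (minus strand, Mapk11), chr10:19934276-19934525 (plus strand, Map3k5) and chr10:120201598-120201847 (minus strand, Irak3, the first of 2 starts).

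All 10 members matched the RefSeq promoter table, with 15 annotated starts. A GC box stood in 8 of these 15 windows, belonging to 8 of the 10 genes, whereas 32.7% of the 32851 promoter windows of all genes held one. An E-box was found at 2 starts of members (6.0% of all promoters), an AP-1 site at 1 (6.7%), a TATA box at 1 (12.4%) and a cAMP response element at 0 (1.5%). Mapk13 and Mapk11 each held 4 GC boxes, and Mapk14 and Mapk12 each held 1, so the number of GC boxes did not part the members that were called from their neighbours. Mapk12 was the gene of the 6 shown with an E-box. The Map3k5 window had 80.8% G and C with 43 CpG dinucleotides, against medians of 52.4% and 6 over all promoters. These letters are descriptions of the windows, not binding sites.

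Values are RMA levels on the log2 scale, in which a difference of 1 is a 2-fold change. A gene was called higher or lower when its Benjamini-Hochberg adjusted p from limma, over all 19938 genes, was under 0.05 and its change was over 1.5-fold. TM against WT and DM against WT share the WT arrays, TM against WT and TM against DM share the TM arrays, and DM against WT and TM against DM share the DM arrays. With 3 arrays for each genotype, the number of arrays limits the precision. Because probes differ in brightness, changes are read between genotypes and not between genes. Where a level is set beside the median gene or another gene, it describes how dim the signal was, not the amount of RNA.

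Facts of the whole series bear on how the members can be read. Array medians were 7.62 to 7.72, and arrays of the same genotype correlated at 0.994 to 0.997. Ero1a averaged 9.06 in TM, 9.46 in DM and 11.86 in WT MEFs, and Prdx4 averaged 6.30 in TM, 10.68 in DM and 10.56 in WT MEFs, in the direction of the labels, while Ero1b was not called in any comparison. Xist, the RNA that coats the inactive X chromosome, averaged 5.72 in TM, 12.56 in DM and 5.70 in WT MEFs, and Eif2s3y, Uty and Kdm5d, which lie on the Y chromosome, changed by -2.01, -1.74 and -1.49 in DM against WT. The DM arrays therefore differ from both other genotypes in these genes too, and for every DM result below this and the genotype cannot be told apart. The mean over 9 fibroblast markers was 11.07 to 11.17 on TM arrays, 10.15 to 10.18 on DM arrays and 10.26 to 10.30 on WT arrays. These means join opposite changes, with Pdgfrb (1.18) and Dcn (1.14) higher and Pdgfra (-1.91) and Col1a2 (-1.71) lower in DM than in WT MEFs. In TM against WT 4 markers, led by Thy1 (2.93), were called higher, where 5.59% of all genes were. Col3a1 (-0.47) and Pdgfra (-0.21) changed the other way in TM MEFs, within the fold limit (limma adjusted p = 7.78e-05 and 0.022). Epithelial markers were the other list with calls: their mean over 10 genes was 7.17 to 7.25 in TM, 7.81 to 7.98 in DM and 7.41 to 7.43 in WT MEFs. In DM against WT 3 were called higher, where 5.28% of all genes were: Krt18 (2.69), Cdh1 (1.14) and Krt14 (0.84). Krt19 (-0.40) and Epcam (-0.34) changed the other way, within the fold limit (limma adjusted p = 0.0125 and 0.00895). In such bulk RNA, fewer cells of a type and less RNA per cell cannot be told apart.

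The 4 P38 isoforms did not move together. Mapk13 (P38δ) rose 3.12-fold in TM MEFs, Mapk12 (P38γ) fell in DM MEFs, and Mapk14 (P38α) and Mapk11 (P38β) were not called in any comparison.

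Mapk13 encodes P38δ, an isoform known from epithelia and blood cells. It read 9.34, 9.17 and 9.17 in TM MEFs, 7.47, 7.39 and 7.30 in DM MEFs and 7.63, 7.58 and 7.55 in WT MEFs. All TM arrays lay above all others, and the DM arrays lay just below the WT arrays. TM MEFs exceeded WT MEFs by 1.64 ± 0.067 (log2 change ± SE, limma adjusted p = 1.13e-09) and DM MEFs by 1.84 (3.58-fold, limma adjusted p = 4.46e-10). In DM against WT the change was -0.20 (95% interval -0.34 to -0.05, limma adjusted p = 0.0337), which was below the fold limit. Of the 10 epithelial markers 1 was called in TM against WT, where 9.15% of all genes were. It was Krt19, with a change of -1.81, and the median change of the list was -0.02. The part of epithelial RNA in the Mapk13 values was not tested.

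Mapk12 encodes P38γ, the isoform best known from skeletal muscle. Its level was 9.65, 9.61 and 9.69 in TM MEFs, 8.99, 9.04 and 9.07 in DM MEFs and 9.93, 9.90 and 9.97 in WT MEFs. The 3 genotypes did not overlap, with DM lowest and TM between DM and WT. Against WT, Mapk12 fell by 0.90 on the log2 scale in DM MEFs (SE 0.054, 1.87-fold lower, limma adjusted p = 4.2e-08). In TM against WT the change was -0.29 (95% interval -0.40 to -0.17, limma adjusted p = 0.00121), within the fold limit, and TM MEFs exceeded DM MEFs by 0.62 (1.53-fold, limma adjusted p = 2.01e-06). Of 10 skeletal muscle markers 0 were called in any comparison, where 8.29% to 10.9% of all genes were, and no change among them reached 1.5-fold. Their mean was 7.17 to 7.27 in TM, 7.19 to 7.29 in DM and 7.18 to 7.19 in WT MEFs, below the median gene level of 8.10. Acta1, the brightest of them, averaged 8.59 in TM, 8.20 in DM and 8.35 in WT MEFs, above that median. The part of muscle RNA in the Mapk12 values was not tested.

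Mapk14 encodes P38α, the isoform present in most tissues. It gave 11.00, 11.00 and 11.02 in TM MEFs, 11.00, 10.96 and 11.00 in DM MEFs and 11.14, 10.99 and 10.97 in WT MEFs. The genotypes overlapped in each of the 3 comparisons. The change was -0.02 in TM against WT (95% interval -0.15 to 0.10), -0.05 in DM against WT (-0.17 to 0.08) and 0.02 in TM against DM (-0.11 to 0.15), so a change of 1.5-fold in either direction lay outside all 3 intervals.

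Mapk11 encodes P38β, the isoform closest to P38α in sequence. Levels were 9.99, 9.78 and 10.05 in TM MEFs, 10.06, 10.12 and 10.20 in DM MEFs and 10.20, 10.27 and 10.43 in WT MEFs. TM arrays were the lowest and WT arrays the highest without overlap, although the highest DM and the lowest WT array both round to 10.20. In TM against WT the change was -0.36 (95% interval -0.54 to -0.18, limma adjusted p = 0.00508), past the p threshold but within the fold limit. The DM change was -0.17 (-0.35 to 0.01, limma adjusted p = 0.131).

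**Figure D1:**
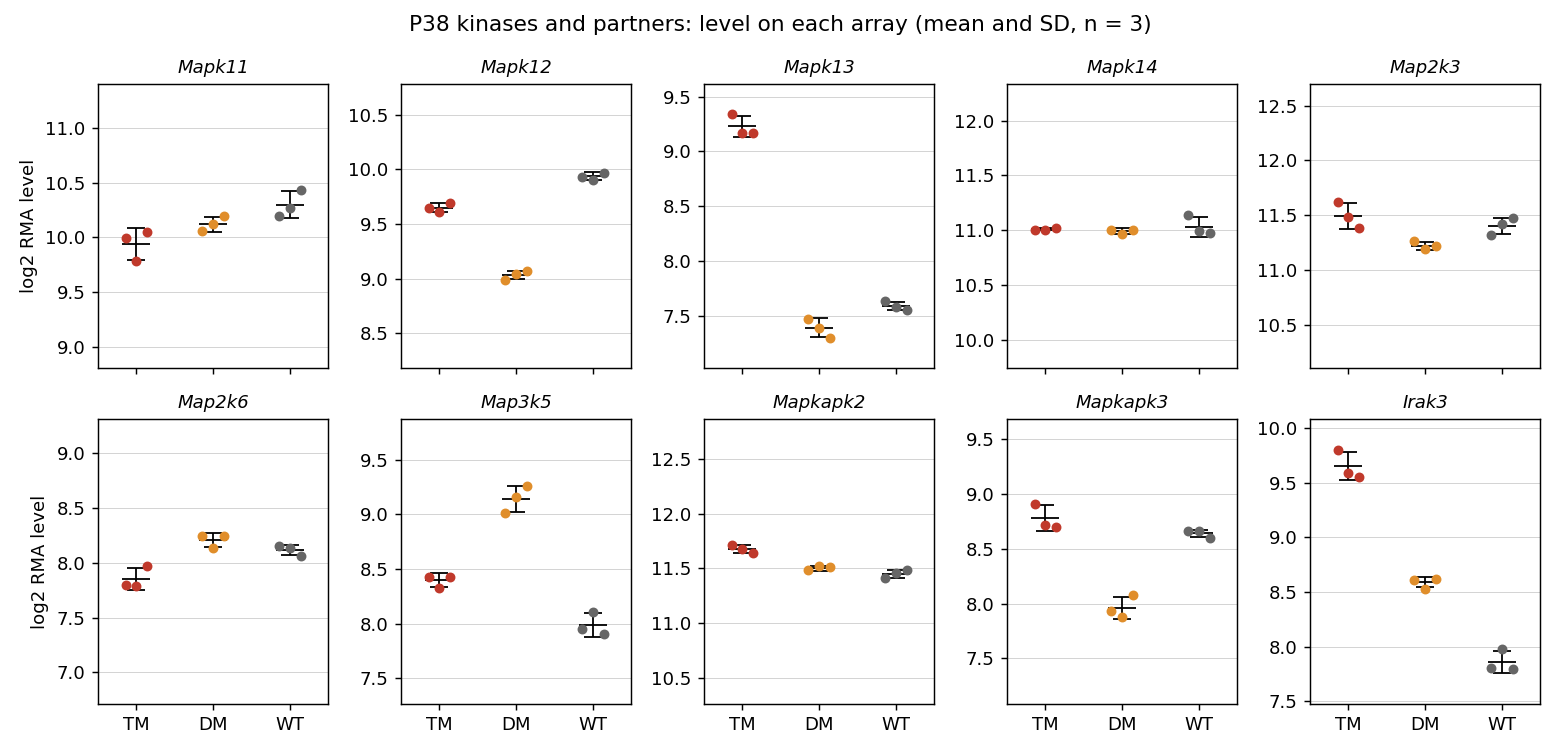
Level of each member on the log2 RMA scale (vertical axis) on each array of TM, DM and WT MEFs, with points for arrays and bars for the mean and SD of 3 arrays. Mapk13 stands at 9.17 to 9.34 in TM MEFs and no higher than 7.63 elsewhere, Map3k5 is highest and Mapk12 and Mapkapk3 lowest in DM MEFs, Irak3 steps down through TM, DM and WT, and Mapk14 overlaps throughout.

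Further up the cascade, Map3k5 rose in DM MEFs while the kinases directly above P38 were not called. Map3k5 encodes ASK1, which oxidants activate through release from thioredoxin. It read 8.43, 8.33 and 8.43 in TM MEFs, 9.01, 9.16 and 9.26 in DM MEFs and 7.95, 8.11 and 7.91 in WT MEFs. The genotypes did not overlap, and the order was DM, TM, WT from high to low. DM MEFs rose above WT MEFs by 1.15 ± 0.076 (log2 change ± SE, 2.22-fold, limma adjusted p = 1.09e-07), and the change in TM against DM was -0.74 (1.67-fold lower, limma adjusted p = 8.37e-06). For TM against WT the change was 0.41 (95% interval 0.24 to 0.57, limma adjusted p = 0.00112), an interval that ends below the fold limit. Map3k5 was the 1 member with identical deposited values on 2 arrays of a genotype, both TM arrays at 8.43, so its TM spread may be understated. The partner of ASK1, thioredoxin (Txn1), averaged 14.16 in TM, 14.14 in DM and 14.10 in WT MEFs and was not called.

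Map2k3 encodes MKK3, which phosphorylates P38α, γ and δ. It gave 11.62, 11.48 and 11.38 in TM MEFs, 11.26, 11.19 and 11.22 in DM MEFs and 11.32, 11.42 and 11.47 in WT MEFs. TM and WT arrays overlapped, and the DM arrays lay below both. The change was 0.09 in TM against WT (limma adjusted p = 0.414), -0.18 in DM against WT (limma adjusted p = 0.0615) and 0.27 in TM against DM (95% interval 0.12 to 0.42, limma adjusted p = 0.0107).

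Map2k6 encodes MKK6, which can phosphorylate all P38 isoforms. Its level was 7.80, 7.79 and 7.97 in TM MEFs, 8.25, 8.14 and 8.25 in DM MEFs and 8.15, 8.14 and 8.06 in WT MEFs. TM arrays were below all others, and DM and WT arrays overlapped. The change was -0.26 in TM against WT (95% interval -0.41 to -0.12, limma adjusted p = 0.00796) and -0.36 in TM against DM (-0.51 to -0.22, limma adjusted p = 0.00103), both within the fold limit, and 0.10 in DM against WT (limma adjusted p = 0.288). Thus the MKK3 and MKK6 mRNAs differed in opposite directions between TM and DM MEFs, each by less than 1.5-fold.

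Below P38, Mapkapk3 fell in DM MEFs and Mapkapk2 was not called. Mapkapk3 encodes MK3, which shares substrates with MK2. It read 8.91, 8.72 and 8.70 in TM MEFs, 7.93, 7.88 and 8.08 in DM MEFs and 8.66, 8.66 and 8.60 in WT MEFs. The DM arrays lay below all others, and the TM arrays lay just above the WT arrays. Against WT, Mapkapk3 fell by 0.68 on the log2 scale in DM MEFs (SE 0.073, 1.60-fold lower, limma adjusted p = 9.99e-06). TM MEFs exceeded DM MEFs by 0.81 (1.76-fold, limma adjusted p = 2.33e-06), and in TM against WT the change was 0.14 (95% interval -0.02 to 0.30, limma adjusted p = 0.194).

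Mapkapk2 encodes MK2, the main kinase through which P38α stabilises cytokine mRNAs, and MK2 also holds P38α in a stable complex. Levels were 11.71, 11.68 and 11.64 in TM MEFs, 11.48, 11.52 and 11.51 in DM MEFs and 11.41, 11.46 and 11.48 in WT MEFs. TM arrays were the highest, without overlap, and DM and WT arrays overlapped. The change was 0.23 in TM against WT (95% interval 0.11 to 0.34, limma adjusted p = 0.00502), 0.17 in TM against DM (limma adjusted p = 0.0261) and 0.06 in DM against WT (limma adjusted p = 0.458), each within the fold limit.

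Irak3 was higher in both mutants. It gave 9.80, 9.59 and 9.55 in TM MEFs, 8.61, 8.53 and 8.62 in DM MEFs and 7.81, 7.98 and 7.80 in WT MEFs. The 3 genotypes did not overlap, and the order was TM, DM, WT from high to low. TM MEFs exceeded WT MEFs by 1.78 (3.44-fold) and DM MEFs exceeded WT MEFs by 0.72 (1.65-fold). The study listed Irak3 among P38 genes for being higher in both mutants on these arrays, so its direction against WT is a description and not independent evidence. TM MEFs exceeded DM MEFs by 1.06 ± 0.077 (log2 change ± SE, 2.08-fold, limma adjusted p = 3.37e-07). IRAK-M is best known from monocytes and macrophages. Of 10 macrophage and leukocyte markers 0 were called in any comparison, where 8.29% to 10.9% of all genes were. No change among them reached 1.5-fold, though Cd68 changed by -0.29 in DM against WT (limma adjusted p = 0.00963). Their mean was 6.70 to 6.72 in TM, 6.64 to 6.73 in DM and 6.69 to 6.70 in WT MEFs, below the median gene level of 8.10. The part of macrophage RNA in the Irak3 values was not tested. The markers differed in level. Cd68, the brightest, averaged 9.19 in TM, 8.93 in DM and 9.22 in WT MEFs, above that median. Ptprc, which encodes the leukocyte antigen CD45, averaged 5.85 in TM, 5.88 in DM and 5.81 in WT MEFs.

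Counted over the set, 2 of 10 members were called in TM against WT, both higher (Mapk13 and Irak3), where 9.15% of all genes were called, 5.59% as higher and 3.56% as lower. In DM against WT 4 of 10 were called, where 10.9% of all genes were, with Map3k5 and Irak3 higher (5.28% of all genes) and Mapk12 and Mapkapk3 lower (5.67%). In TM against DM 5 of 10 were called, where 8.29% of all genes were, with Mapk12, Mapk13, Mapkapk3 and Irak3 higher (4.68%) and Map3k5 lower (3.61%). Without Irak3 the counts were 1, 3 and 4 of 9 members. Members were picked with earlier results of these data known, so the counts beside these shares describe the set and are not an unbiased comparison. The median change of the 10 members was 0.11 in TM against WT, -0.11 in DM against WT and 0.22 in TM against DM, beside -0.029, 0.025 and -0.046 over all genes.

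Many members and many genes alike were separated by genotype without passing the fold limit. Arrays did not overlap for 8 members in TM against WT (43.4% of all genes), for 7 in DM against WT (46.4%) and for 9 in TM against DM (40.1%). At an adjusted p under 0.05 with no fold limit, limma called 7 members in TM against WT (31.8% of all genes), 5 in DM against WT (36.8%) and 8 in TM against DM (31.8%). The members not called ranged from -0.36 to 0.41 in TM against WT and from -0.20 to 0.10 in DM against WT.

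**Figure D2:**
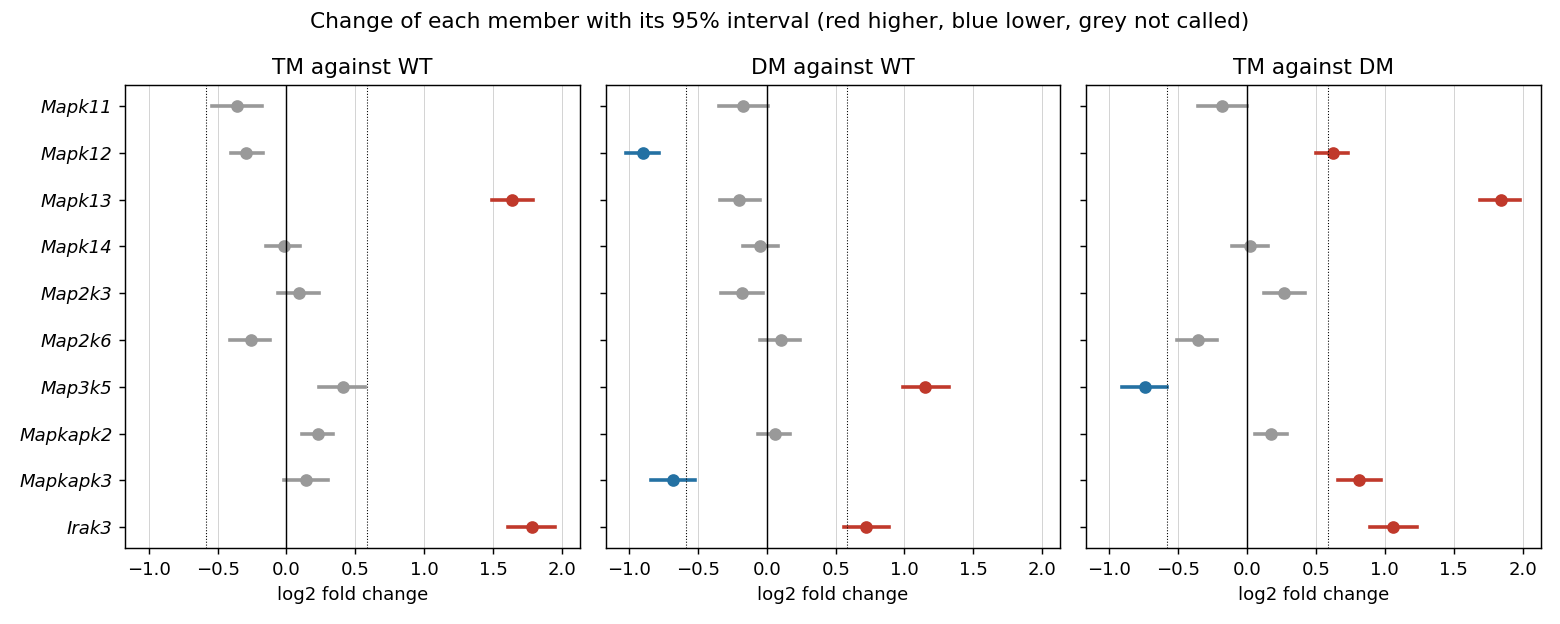
Log2 fold change of each member (horizontal axis) with its 95% interval in TM against WT, DM against WT and TM against DM, where dotted lines mark 1.5-fold and red, blue and grey mark members called higher, called lower and not called. Mapk13 (1.64) and Irak3 (1.78) stand apart in TM against WT, and Map3k5 (1.15) and Mapk12 (-0.90) mark the ends of DM against WT.

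TM against DM tests the difference between the mutants, and 5 members were called in it. Map3k5, Mapk12 and Mapkapk3 had their call against WT in DM MEFs, and in TM MEFs each lay closer to WT, with changes of 0.41, -0.29 and 0.14 in TM MEFs beside 1.15, -0.90 and -0.68 in DM MEFs. Mapk13 had its call in TM MEFs, with changes of 1.64 in TM and -0.20 in DM MEFs. Irak3 changed the same way in both, by 1.78 in TM and 0.72 in DM MEFs.

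The neighbours on either side of the P38 gene pairs, named here after their values were seen, were not called in any comparison. Beside Mapk13 and Mapk14 on chromosome 17, Slc26a8, an anion transporter gene, changed by 0.10 in TM against WT and 0.13 in DM against WT, and Brpf3, which encodes a chromatin reader, by 0.07 and -0.11. Beside Mapk12 and Mapk11 on chromosome 15, Hdac10, a deacetylase gene, changed by -0.12 and -0.15, and Plxnb2, a semaphorin receptor gene, by -0.13 and 0.26. Plxnb2 passed the p threshold within the fold limit in DM against WT (limma adjusted p = 0.0247). It did so too in TM against DM, with a change of -0.39 (limma adjusted p = 0.0025). Whether a change of the region bears on the P38 genes was not tested.

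A further 78 genes of the pathway, from 6 lists, were measured to set the members in context. Of these 7 were higher and 7 lower in TM against WT, or 17.9% of the 78 beside 9.15% of all genes. In DM against WT 8 were higher and 5 lower, or 16.7% beside 10.9% of all genes, and in TM against DM 9 were higher and 1 lower, or 12.8% beside 8.29%. Their median change was 0.00 in TM against WT, -0.03 in DM against WT and 0.00 in TM against DM. These lists were drawn up knowing that Il6 and other genes had moved.

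Among 23 other upstream kinases and adaptors, TM MEFs had 4 lower and 0 higher than WT, where 3.56% of all genes were called lower and 5.59% higher. DM MEFs had 1 lower and 0 higher than WT, where 5.67% of all genes were called lower and 5.28% higher. Map3k20, which encodes the stress kinase ZAK, was 10.46, 10.42 and 10.38 in TM MEFs, 10.50, 10.34 and 10.57 in DM MEFs and 11.26, 11.43 and 11.35 in WT MEFs. Both mutants lay below WT without overlap, with changes of -0.93 in TM and -0.88 in DM MEFs (limma adjusted p = 4.67e-07 and 7.21e-07). Tab1, whose product can bind and activate P38α directly, fell in TM MEFs, with a change of -0.81, as did Map3k11 (MLK3, -0.77) and Map3k4 (MEKK4, -0.69). In DM MEFs the change of these 3 was -0.52, -0.03 and -0.37, and none was called. Those of Tab1 and Map3k4 passed the p threshold in DM against WT (limma adjusted p = 0.000724 and 0.00015), within the fold limit. Neither Tab1 nor Map3k4 was called in TM against DM. Against DM, TM MEFs had higher Gadd45a (0.74) and Gadd45g (0.80), which encode activators of MEKK4, and lower Map3k11 (-0.74).

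Of the 7 measured phosphatases that switch P38 off, Dusp1 and Dusp10 were called lower in DM MEFs, where 5.67% of all genes were. Dusp1, an immediate early gene whose product MKP-1 dephosphorylates P38 and JNK, was 12.13, 12.09 and 12.08 in TM MEFs, 11.15, 11.11 and 11.12 in DM MEFs and 12.23, 12.39 and 12.31 in WT MEFs. Every DM array lay well below every TM and WT array. The change was -1.19 in DM against WT (limma adjusted p = 5.32e-09), -0.22 in TM against WT (limma adjusted p = 0.0113, within the fold limit) and 0.97 in TM against DM (limma adjusted p = 4.87e-08). Dusp10 (MKP-5) read 10.43, 10.41 and 10.34 in TM MEFs, 9.57, 9.73 and 9.59 in DM MEFs and 10.36, 10.42 and 10.41 in WT MEFs. TM and WT arrays overlapped, and DM arrays were lower than both, with a change of -0.77 against WT (limma adjusted p = 5.68e-07). Dusp8 was lower in TM than in WT MEFs, with a change of -0.61 that was not called under quantile normalisation or cyclic loess, and the 4 remaining phosphatases were not called in any comparison.

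Among 16 other P38 substrates, the transcription factor genes Mef2a and Mef2c rose in TM MEFs. Mef2c read 7.65, 7.59 and 7.48 in TM MEFs, 6.65, 6.40 and 6.54 in DM MEFs and 6.34, 6.50 and 6.34 in WT MEFs. TM arrays lay above all others, by 1.18 over WT (limma adjusted p = 9.86e-08), and DM and WT arrays overlapped. Mef2a rose by 0.91 in TM MEFs, with 0.18 in DM MEFs (not called). Zfp36l1, whose product promotes decay of AU-rich mRNAs, rose by 0.89 in TM and by 0.96 in DM MEFs. Hspb1, the small heat shock protein that MK2 phosphorylates, and Mknk2 fell in TM MEFs, with changes of -0.74 and -0.72. In DM MEFs their changes were -0.57 and -0.43 (limma adjusted p = 0.000133 and 0.000949), within the fold limit, and neither was called in TM against DM. Ddit3, which encodes CHOP, was called in TM against DM (0.62) and changed by 0.56 in TM against WT, just within the fold limit.

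At the receptors that feed into the cascade, Tlr3, the sensor of double-stranded RNA, was 8.90, 8.86 and 9.06 in TM MEFs, 9.22, 9.42 and 9.37 in DM MEFs and 7.76, 7.76 and 7.82 in WT MEFs. Both mutants lay above WT without overlap, by 1.16 in TM and 1.56 in DM (limma adjusted p = 5.94e-08 and 3.11e-09). Tlr2 rose by 0.66 in DM MEFs, a call lost with median centring, and its change in TM MEFs was 0.48, not called. The remaining 9 of the 11 genes measured near these receptors were not called in either mutant. Of the 11, 9.09% were called in TM against WT and 18.2% in DM against WT, beside 9.15% and 10.9% of all genes. Of 11 other MAP kinases and MAP2Ks, 0 were called in TM against WT, where no change reached 1.5-fold and 9.15% of all genes were called. In DM against WT, where 10.9% of all genes were called, Mapk9 (JNK2) changed by 0.60 and Mapk6 (ERK3) by -0.60. Both calls lay at the fold limit, and each was lost in 5 of the 19 alternatives that kept this limit and all genes, among them leaving out WT replicate 1, WT replicate 3 or DM replicate 3, and for Mapk6 quantile normalisation and cyclic loess, for Mapk9 median centring and leaving out DM replicate 2.

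**Figure D3:**
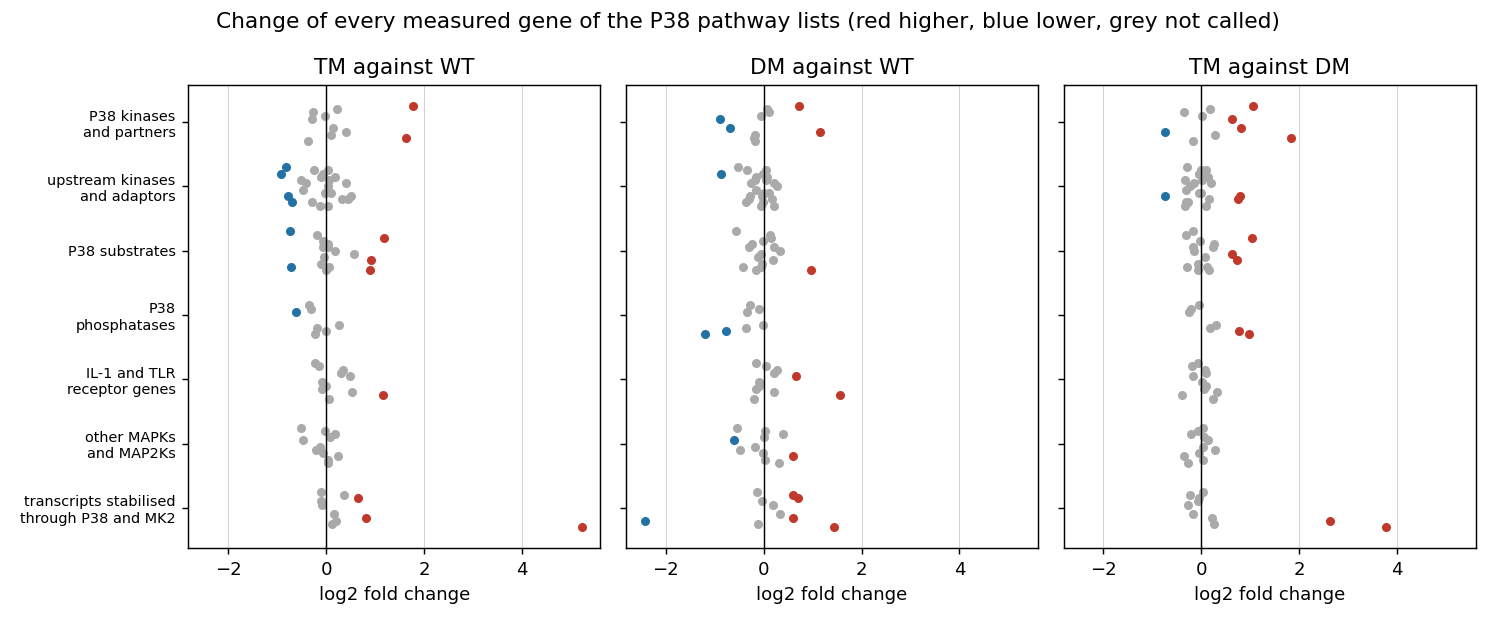
Log2 fold change (horizontal axis) of the 10 members and of the 78 other measured genes in 6 pathway lists, 1 point a gene, in TM against WT, DM against WT and TM against DM, with red, blue and grey for called higher, called lower and not called. The points farthest out are Il6 in TM against WT (5.22) and TM against DM (3.78), and Ptgs2 in DM against WT (-2.43).

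Transcripts that P38 and MK2 are known to stabilise held the largest changes of these lists, and Il6 and Ptgs2 differed between the mutants. Il6, which encodes the cytokine interleukin 6, was 11.03, 10.97 and 11.19 in TM MEFs, 7.09, 7.54 and 7.22 in DM MEFs and 5.54, 6.26 and 5.72 in WT MEFs. The genotypes did not overlap, in the order TM, DM, WT from high to low. TM MEFs exceeded WT MEFs by 5.22 and DM MEFs did by 1.44, though the study named Il6 too from these arrays. The study also lists Il6 among the transcripts it quantified by real-time PCR. The WT mean of 5.84 is as dim as that of Ptprc (5.81) or of Xist (5.70) in the same cells, so these differences may be understated. Directly compared, TM MEFs exceeded DM MEFs by 3.78 (limma adjusted p = 1.76e-09). Ptgs2, which encodes cyclooxygenase-2, read 13.50, 13.51 and 13.55 in TM MEFs, 10.91, 10.86 and 10.92 in DM MEFs and 13.31, 13.32 and 13.34 in WT MEFs. DM arrays lay far below both other genotypes, with a change of -2.43 against WT (limma adjusted p = 2.27e-12), with a change of 0.20 in TM against WT. The chemokine genes Cxcl1 and Cxcl2 rose in both mutants, Cxcl1 by 0.65 in TM and 0.70 in DM MEFs and Cxcl2 by 0.81 and 0.60, and Ccl2 rose by 0.60 in DM MEFs. The DM call of Cxcl2 was lost in 8 of these 19 alternatives, including all 3 scalings, array weights and leaving out WT replicate 1 or 2 or DM replicate 2 or 3. That of Ccl2 was lost in 4, with median centring and without WT replicate 1, WT replicate 3 or DM replicate 2, and the TM call of Cxcl1 in 2, with median centring and without WT replicate 2. Tnf, Il1a, Il1b, Csf2 and Csf3 were not called in either mutant.

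**Figure D4:**
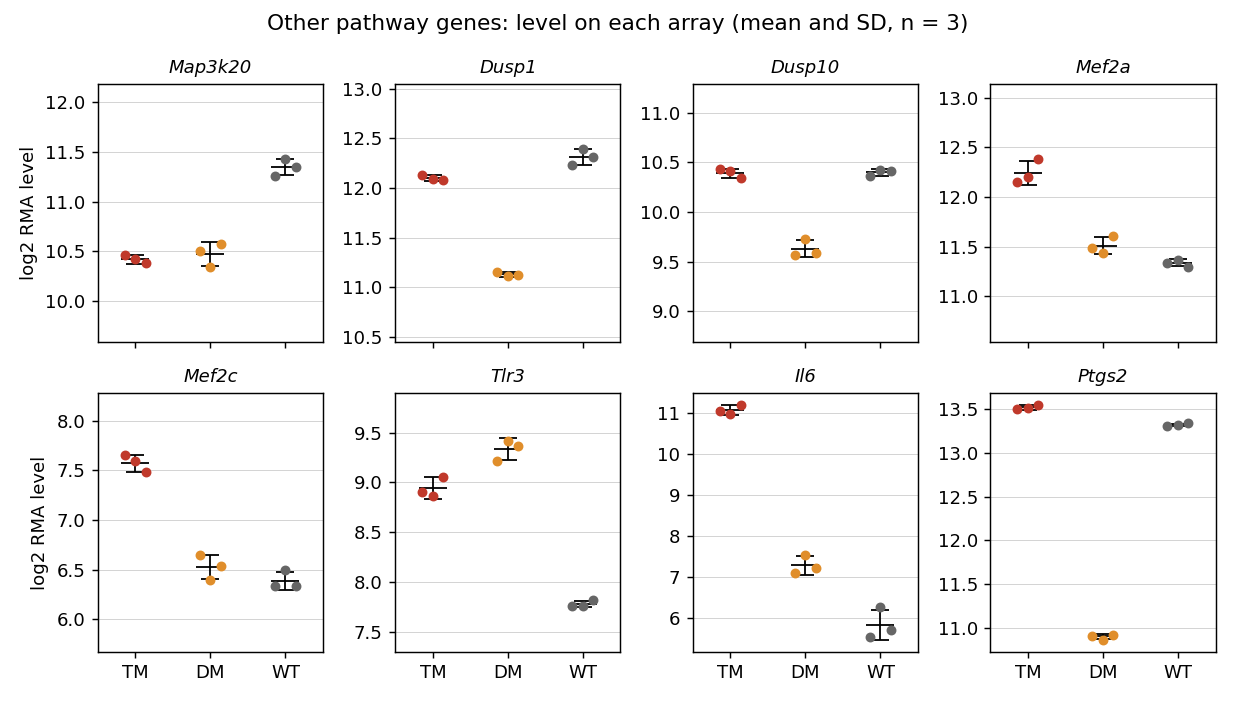
Level of 8 other pathway genes on the log2 RMA scale (vertical axis) on each array of TM, DM and WT MEFs, with points for arrays and bars for the mean and SD of 3 arrays. Dusp1, Dusp10 and Ptgs2 are low in DM MEFs, Map3k20 is low and Tlr3 high in both mutants, and Mef2a, Mef2c and Il6 are highest in TM MEFs.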

How the data were processed

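Labelled cRNA made by the authors from total RNA of TM, DM and WT MEFs went onto Affymetrix Gene ST arrays. Each probe set has 1 deposited log2 value per array, made by RMA according to the submitters' processing notes, which give no version. RMA corrects background, normalises the arrays to each other and summarises probes, so differences in total signal were removed before deposit. The methods also name PLIER, whose values, like probe-level data, were not analysed here. A genome build for the arrays is not stated in the sources used here.

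Of 35556 probe sets, 21789 had 1 symbol, 1621 had several and 12146 were not listed in the annotation. Gene identifiers were matched to RefSeq (GRCm38.p6; 21698 matched, 0 symbols changed). The brightest probe set per gene gave 19938 genes. All 9 arrays were fitted in 1 model in limma 3.58.1 (R 4.3.3; lmFit, eBayes, 6 residual degrees of freedom), checked on simulated data. The 1.5-fold limit follows the methods.

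The members and lists were chosen with earlier results of these data known. Genes named are the members, the mutated and sex chromosome genes, up to 4 genes per pathway list with the largest called changes against WT, markers that are the brightest of a list, and for each member called against WT the 3 genes of highest Pearson r over the arrays (SD at least 0.5). Ptprc, Txn1, the fibroblast markers, the epithelial markers other than Krt19, Mknk2, Ccl2, Tnf, Il1a, Il1b, Csf2, Csf3, the neighbouring genes and the genes named for TM against DM lie outside this rule and were named after their values were seen. Alternatives were other fold limits, scalings, probe set choices, variance models, a filter on dim genes, fits of 6 arrays, Student's t-test, a replicate block and leaving out each array.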

Additional observations from a re-analysis of the deposited data

Results flagged for a closer look

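For 5 members the change against WT differed between the mutants in the limma test of TM against DM. Map3k5 was lower in TM than in DM MEFs (a log2 change of -0.74, adjusted p = 8.37e-06), as it changed by 0.41 in TM and 1.15 in DM MEFs against WT. Mapk12 was higher by 0.62 in TM than in DM MEFs (adjusted p = 2.01e-06), with changes of -0.29 in TM and -0.90 in DM MEFs. Mapkapk3 was higher by 0.81 (adjusted p = 2.33e-06), with 0.14 in TM and -0.68 in DM MEFs. Mapk13 was higher by 1.84 (adjusted p = 4.46e-10), with 1.64 in TM and -0.20 in DM MEFs, and was the member whose 2 changes ran furthest apart. Irak3 was higher by 1.06 (adjusted p = 3.37e-07), with 1.78 in TM and 0.72 in DM MEFs. In all 5, the TM and DM arrays did not overlap.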

How the results depend on the processing

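The members called were the same genes in 20 of 22 alternatives for TM against WT, in 20 of 22 for DM against WT and in 19 of 22 for TM against DM, and leaving out any 1 array gave 2 to 2, 4 to 4 and 5 to 5 calls. With no fold limit the counts became 7 members in TM against WT and 8 in TM against DM. For the other pathway genes they became 39 in TM against WT, 39 in DM against WT and 35 in TM against DM. Of all genes, 31.8%, 36.8% and 31.8% passed in TM against WT, DM against WT and TM against DM. At over 2-fold the counts were 1 member in DM against WT (Map3k5) and 2 in TM against DM (Mapk13 and Irak3). For the other pathway genes they were 3 in TM against WT, 4 in DM against WT and 3 in TM against DM. The share of all genes at over 2-fold was not counted, so these counts cannot be set against it. Without genes dimmer than the median level of 8.10, TM against WT kept 1 member, Irak3, because Mapk13 was not tested. Leaving out 1 array gave 14 to 15 other pathway genes in TM against WT, 9 to 13 in DM against WT and 10 to 10 in TM against DM.

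Of 654 values for single members under alternatives, 631 kept direction and call, 9 gained a call, 6 lost one and 8 changed sign. The sign changes were in members near 0 and not called. Mapk14 became 0.038 (quantile), 0.055 (cyclic loess) and 0.028 (without WT replicate 1) in TM against WT, 0.049, 0.054 and 0.008 in DM against WT (leaving out any 1 array gave -0.057 to 0.028 and -0.078 to 0.008), and -0.012 (quantile) in TM against DM, and Mapkapk2 became -0.034 with median centring in DM against WT. The cause was not tested.

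The labels number the arrays of each genotype. Deviations of same-numbered arrays correlated at -0.239 to 0.168, over 0.1 in 1 of 9 pairs, and 0 arrays correlated best with their own number, so the numbers were not taken to pair the arrays. With the replicate block, 2, 4 and 5 members and 14, 13 and 10 other pathway genes were called in TM against WT, DM against WT and TM against DM, and the counts did not change. An unpaired Student's t-test on the RMA values gave these same counts, both at unadjusted p under 0.05 and after Benjamini-Hochberg adjustment. The methods name a Student's t-test in their general statistics, and for the arrays they give a p threshold without naming a test. Dim probe sets limit what can be read from Mapk13 and Map2k6, whose mean levels lie below the median gene.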

Other observations

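Over the 9 arrays, the genes whose pattern was most like that of a called member, among 1246 or 1247 genes with an SD of at least 0.5, gave Pearson r of 0.985 to 0.999. The 9 arrays are 3 genotypes of 3, so these values describe the order and spacing of 3 genotype means. Closest to Mapk13 were Stmn2, a neuronal tubulin regulator (0.999; 9.38 in TM, 7.06 in DM and 7.29 in WT MEFs), Gpr176 (0.998) and Tbx5, a heart and limb transcription factor (0.997; 10.40, 6.16 and 6.82). Closest to Mapk12 were Flrt2 (0.997), Snx9 (0.995) and Crabp1, a retinoic acid binding protein gene (0.995; 12.60 in TM, 9.02 in DM and 14.03 in WT MEFs). Map3k5 was followed by Gbp4, an interferon-induced GTPase gene (0.994; 7.34, 9.06 and 6.69), Satb1 (0.993) and Fgf18 (0.992). Mapkapk3 had 1700048O20Rik (0.993), Mtmr10 (0.990) and the immediate early gene Ier5 (0.985), and Irak3 had Niban1 (0.997), Cd302 (0.996) and Zfp105 (0.995; 8.13 in TM, 6.83 in DM and 6.01 in WT MEFs).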
